A study of Mus musculus with 24 samples.

Results

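Transcripts for the subunits of the mitochondrial respiratory chain and the ATP synthase were followed in mouse embryonic fibroblasts (MEFs) that lacked Myc, Mlx or both. The members were chosen by name alone, as the genes whose symbols begin with Nduf (followed by a, b, c, s or v and a number), Uqcr, Cox4 to Cox8 or Atp5, the genes Sdha to Sdhd and Cyc1, and the protein-coding mitochondrial genes (mt-Nd, mt-Cytb, mt-Co and mt-Atp). No measured value entered that choice. It gave 101 of the 41710 genes in each of the 2 tables, 88 of them coded in the nucleus and 13 on the mitochondrial chromosome, and the pseudogene Cox5b-ps was left out. By name, 39 nuclear and 7 mt-coded members belong to complex I, 4 to complex II, 9 and 1 to complex III, 18 and 3 to complex IV, and 18 and 2 to complex V, with Ndufa4 counted under complex I because of its symbol although it is now placed in complex IV.

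RNA sequencing of poly(A)-selected, directional libraries was done on 24 libraries, 3 for each of 4 genotypes in primary cells and 3 for each of the same genotypes after immortalization. The primary cultures were pooled from at least 6 embryos between days 14 and 16 of gestation, and carried floxed alleles of Myc, of Mlx or of both with a CreER recombinase driven by the ROSA26 promoter. Treatment with 500 nM 4-hydroxytamoxifen (4OHT) excised the floxed alleles and gave MycKO, MlxKO and DKO (both genes lost) cells, whereas vehicle-treated cells kept the loci intact and are called WT. Primary cells were sequenced on day 10. Floxed cells of a single genotype mostly served as the WT control in the study, and the labels do not say which. Immortalized cells had been transduced with a lentivirus for SV40 T-antigen and selected in blasticidin before excision. In both tables, exposure to 4OHT with Cre activity cannot be told apart from the excision itself, and 1 immortalized line per genotype means that line and genotype cannot be told apart either. The study calls the 3 primary libraries of a group biological replicates, while its methods describe pooling the embryo cells of each group. Embryo pool and floxed line therefore cannot be told apart from genotype in primary cells, except where a knockout shares its line with WT. Nothing says whether the libraries came from separate excisions. Each p-value thus measures the spread between these libraries, which may be in part technical. Deposited values were in CPM, read counts relative to library size, scaled separately in the primary and the immortalized table, and levels set side by side across the 2 tables are given without a test. In bulk samples, fewer cells of a type and less RNA per cell cannot be told apart.

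Oxidative phosphorylation joins electron transfer to ATP synthesis in the inner mitochondrial membrane. Complex I accepts electrons from NADH and complex II from succinate, both pass them through ubiquinone to complex III, and cytochrome c carries them on to complex IV, which reduces oxygen. Complexes I, III and IV pump protons, and their return through the membrane part of complex V drives its rotor and catalytic head. Most subunits are coded in the nucleus and imported, and a small hydrophobic core is coded by mitochondrial DNA, which is transcribed as long polycistronic RNAs from both strands. Complex II has no mt-coded subunit. Fibroblasts in culture use glycolysis as well as respiration, and Myc is known as an activator of many nuclear genes for mitochondrial proteins, through E-boxes with the letters CACGTG that Mlx and its partners also bind.

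Promoter stretches of 5 nuclear-coded members are shown because they hold, or lack, the E-box bound by both transcription factor families. Each runs from 250 bases before to 20 bases after the RefSeq transcript start in build GRCm38.p6 and is written 5′ to 3′ on the gene's own strand, which is the minus strand for all 5. Capitals mark CACGTG (E-box), GCGCATGC (core of the NRF1 site) and CCGGAAG (core of the GABP site), each searched on both strands, so that a match on the other strand appears as its complement read backwards. Atp5g1 codes a copy of the c-ring protein of the ATP synthase and lies at chr11:96075612-96075881, Atp5g3 codes the same mature protein at chr2:73911307-73911576, Atp5pb codes the peripheral stalk subunit b at chr3:105959244-105959513, Atp5c1 codes the central stalk subunit gamma at chr2:10080491-10080760 and has none of the 3 motifs, and Uqcr11 codes a small subunit of complex III at chr10:80406802-80407071.
Atp5g1: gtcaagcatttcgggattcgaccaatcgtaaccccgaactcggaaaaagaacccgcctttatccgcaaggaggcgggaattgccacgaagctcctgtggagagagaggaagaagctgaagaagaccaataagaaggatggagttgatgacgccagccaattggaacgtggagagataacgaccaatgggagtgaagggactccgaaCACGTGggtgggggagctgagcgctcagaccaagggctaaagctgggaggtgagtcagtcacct
Atp5g3: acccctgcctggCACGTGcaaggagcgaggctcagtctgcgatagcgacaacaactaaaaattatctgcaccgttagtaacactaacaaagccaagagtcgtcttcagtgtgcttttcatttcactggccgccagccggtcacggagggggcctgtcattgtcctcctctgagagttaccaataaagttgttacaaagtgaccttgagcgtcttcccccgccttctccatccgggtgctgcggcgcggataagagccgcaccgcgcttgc
Atp5pb: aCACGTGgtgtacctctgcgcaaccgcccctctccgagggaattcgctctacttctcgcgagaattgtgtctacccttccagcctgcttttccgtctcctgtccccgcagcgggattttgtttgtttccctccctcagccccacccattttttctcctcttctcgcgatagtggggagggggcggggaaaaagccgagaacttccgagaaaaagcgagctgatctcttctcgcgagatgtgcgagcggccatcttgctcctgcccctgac
Atp5c1: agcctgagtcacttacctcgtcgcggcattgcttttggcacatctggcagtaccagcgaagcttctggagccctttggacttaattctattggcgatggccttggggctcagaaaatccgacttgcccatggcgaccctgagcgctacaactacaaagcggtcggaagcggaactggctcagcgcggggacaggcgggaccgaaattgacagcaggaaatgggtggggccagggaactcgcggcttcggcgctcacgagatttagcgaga
Uqcr11: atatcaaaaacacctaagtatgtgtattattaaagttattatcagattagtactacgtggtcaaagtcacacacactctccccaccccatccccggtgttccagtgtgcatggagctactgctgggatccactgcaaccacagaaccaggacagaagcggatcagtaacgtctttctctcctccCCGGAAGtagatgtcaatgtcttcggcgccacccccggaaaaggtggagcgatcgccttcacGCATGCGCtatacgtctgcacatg

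The mt-coded genes lie so close that some share bases, and the longest such stretch is given because reads from it could be assigned to either gene. In GRCm39 it covers 43 bases at chrM:7927-7969 on the plus strand, from the start codon of mt-Atp6 to the end of mt-Atp8. Capitals mark the mt-Atp6 start codon.
mt-Atp8 and mt-Atp6: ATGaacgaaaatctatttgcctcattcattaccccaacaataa

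A further 3 shorter overlaps were found, of 1 base between mt-Atp6 and mt-Co3, 7 bases between mt-Nd4l and mt-Nd4, and 14 bases between mt-Nd5 and mt-Nd6, which lie on opposite strands. How the authors' counting split reads in such stretches, or between the mitochondrial chromosome and its copies in the nuclear genome, is not given in the sources used here, and the levels of mt-Atp8 are uncertain for that reason.

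Every library could be read as whole reads, 15986856 to 20966163 on genes in the primary table and 17541112 to 19851300 in the immortalized one, so that 3 reads, taken as the floor, corresponded to 0.145 to 0.196 CPM. Myc fell in both Myc-deleted primary groups, being 89.8 to 100.1 CPM in WT, 25.8 to 26.8 in MycKO and 19.9 to 22.9 in DKO, and Mlx, at 20.5 to 26.0 CPM in WT, was 13 to 14 in MlxKO and 9.73 to 12.0 in DKO. In immortalized cells Myc was 48.1, 39.9 and 177 CPM in the WT libraries, 9.96 to 17.2 in MycKO and 4.25 to 8.02 in DKO, and Mlx was 20.5 to 25.1, 12.1 to 17 in MlxKO and 14.5 to 18.0 in DKO. The last was a log2 difference of -0.44 ± 0.16 (SE, adjusted p = 0.0694) that did not pass the threshold. Reads on exons outside the deleted part still count for these genes. Fibroblast markers (8 genes) summed to 42479 to 46084 CPM in primary WT, 43494 to 48047 in MlxKO, 54935 to 57297 in MycKO and 57377 to 58375 in DKO, with 7 of 8 called higher in both Myc-deleted groups. In immortalized cells they summed to 25007 to 33586 in WT, 18283 to 22538 in MlxKO, 17935 to 24134 in MycKO and 26603 to 34447 in DKO, so that both single knockouts lay below WT and DKO overlapped with it, although 2 markers were called higher in each single knockout, 1 lower in MlxKO and 2 lower in MycKO.

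Markers of other cell types moved with genotype in both tables. In the order WT, MlxKO, MycKO and DKO, the primary sums for macrophage markers (5 genes) were 107 to 194, 112 to 135, 17.1 to 20 and 33.2 to 65.6 CPM, with 5 of 5 called lower in both Myc-deleted groups. For muscle markers (8 genes, Ckm at 0 in all 4 groups) they were 80.2 to 88.5, 35.7 to 46.3, 36.5 to 42.7 and 80.2 to 88, for epithelial markers (4) 16.1 to 19.3, 2.72 to 4.36, 1.5 to 1.89 and 1.90 to 2.53, for endothelial markers (4) 13.5 to 14, 2.99 to 4.25, 4.99 to 7.98 and 4.75 to 5.65, and for fat markers (3) 7.87 to 8.52, 5.22 to 8.68, 3.47 to 5.23 and 4.78 to 5.39. Macrophage, epithelial and endothelial sums were thus below WT in both Myc-deleted groups, and the epithelial and endothelial sums in MlxKO too. Of 2 epithelial markers tested, 2 were called lower in each knockout. Of 2 endothelial markers tested, 1 was called lower in each knockout and 1 higher in DKO. Of all genes, 21.9%, 5.14% and 25.5% were called lower in MycKO, MlxKO and DKO, and 24.0% higher in DKO. In immortalized cells, where the macrophage markers Ptprc and Adgre1 were at 0 in WT, the macrophage sums were 3.05 to 4.69, 4.06 to 5.25, 1.18 to 1.76 and 5.54 to 5.80 in the same order. There, muscle sums were 3.77 to 4.24 in MycKO and 0.761 at most elsewhere, endothelial sums 3.10 to 5.05, 5.66 to 7.11, 14.4 to 19.1 and 7.64 to 9.0, fat sums 8.84 to 20.6, 12.4 to 15.3, 1.98 to 2.81 and 4.47 to 5.52, and epithelial sums 0.365 to 5.91, 1.31 to 1.60, 0.102 to 0.275 and 1.02 to 1.25. Muscle and endothelial sums thus stood highest, and fat, macrophage and epithelial sums lowest, in MycKO. Only 1 marker of each of these types, or 2 for endothelium, entered the test there. In MycKO the muscle marker and 1 endothelial marker were called higher, and the fat and macrophage markers lower. Since the muscle sums outside MycKO stayed under 1 CPM, the muscle marker entered the test through the MycKO libraries alone. Its call there was favoured by the filter and is not separate support. The epithelial marker was not called. Of all genes, 24.4% were called higher and 23.5% lower in MycKO. Brown fat markers (2) were at most 0.117 CPM in either table. The part of these cells in the results on the members was not tested.

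Some libraries stood apart from the other 2 of their group in these transcripts. In primary cells the mt-coded members of WT library 3 deviated by a median of 0.46 on the log2 scale and its nuclear-coded members by -0.11, and MycKO library 10 deviated in the same sense by 0.72 and -0.25. In immortalized cells MycKO library 9 deviated by 0.79 for nuclear-coded members and by -0.52 for mt-coded members, with nuclear members of transcripts shorter than 1 kb at 1.00, the longer ones at 0.68, and all short genes of the table at 0.54. The mt-coded members of immortalized MlxKO library 5 deviated by 0.54 and those of DKO library 13 by -0.52. Counts of called members that rest on these libraries are given with and without them.

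**Figure D1:**
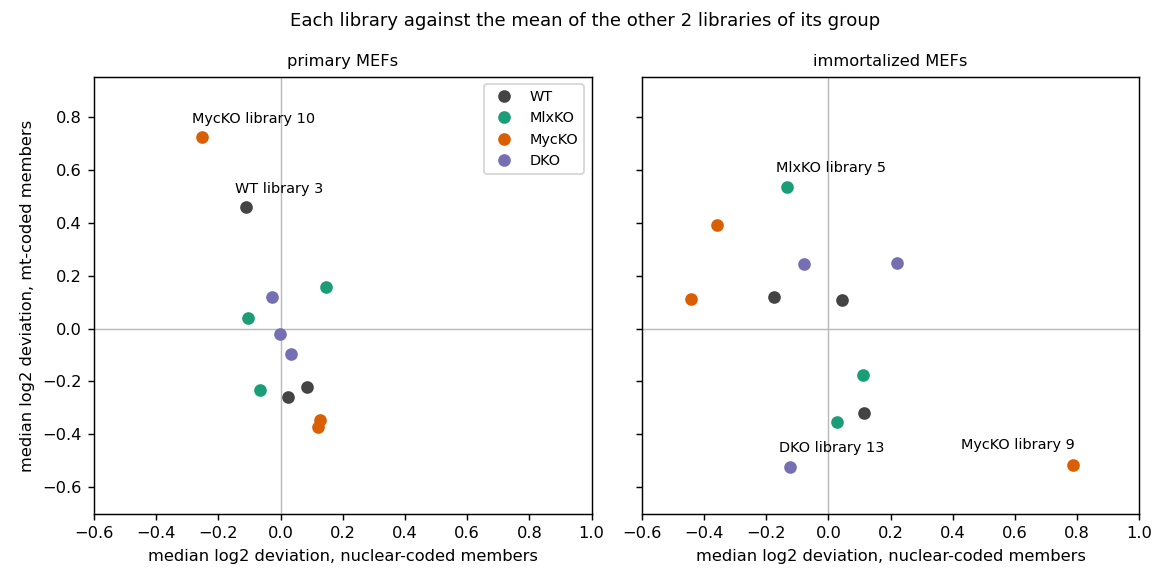
Median log2 deviation of each library from the mean of the other 2 libraries of its group, for tested nuclear-coded members (horizontal axis) and mt-coded members (vertical axis), in the primary (left) and immortalized (right) tables, coloured by genotype. Most libraries sit near the origin, and the labelled ones lie farther out, primary MycKO library 10 at 0.72, WT library 3 at 0.46, immortalized MlxKO library 5 at 0.54 and DKO library 13 at -0.52 for mt-coded members, and immortalized MycKO library 9 at 0.79 for nuclear-coded members.

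The 13 mt-coded mRNAs took a larger share than the 88 nuclear-coded members together in all libraries but immortalized MycKO library 9, in which the shares were nearly equal. In immortalized cells the mt-coded share was lower in every knockout library than in any WT library. Immortalized WT libraries held 3.33, 3.07 and 2.96% of their signal in mt-coded mRNAs, MlxKO libraries 1.99, 1.39 and 1.51%, MycKO libraries 0.849, 1.11 and 1.22% and DKO libraries 1.74, 2.43 and 2.50%. No knockout group overlapped with WT, the MycKO libraries were the lowest, and the MlxKO and DKO libraries overlapped each other. Primary WT libraries held 2.18, 2.10 and 2.83%, MlxKO libraries 2.61, 2.87 and 2.95%, MycKO libraries 1.66, 2.58 and 1.63% and DKO libraries 1.54, 1.65 and 1.52%. Here DKO libraries lay below all of WT, whereas MycKO library 10 lay within the WT range and the other two MycKO libraries below it.

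The share of the nuclear-coded members together in primary cells was 0.647, 0.632 and 0.597% in WT, 0.594, 0.587 and 0.660% in MlxKO, 0.570, 0.477 and 0.570% in MycKO and 0.491, 0.491 and 0.511% in DKO, so that all 6 libraries without Myc lay below all 3 WT libraries in this share. In deposited CPM, the scale of the tests, these members summed to 5820 to 6292 in WT and 5021 to 5955 in MycKO, which overlapped. DKO, at 5086 to 5201, lay below WT on that scale too. Column sums were 971446 to 975490 in WT and 1040376 to 1051865 in MycKO. Immortalized libraries held 0.492, 0.565 and 0.571% in WT, 0.628, 0.688 and 0.699% in MlxKO, 0.856, 0.518 and 0.533% in MycKO and 0.487, 0.495 and 0.570% in DKO. MlxKO libraries lay above WT in this share, and the high MycKO value came from library 9 alone. In deposited CPM the MlxKO sums, 5757 to 6400, overlapped with those of WT, 5054 to 6148. Column sums were 915691 to 916232 in MlxKO and 992479 to 1077213 in WT. The ratio of nuclear to mt-coded signal was 0.148 to 0.193 in immortalized WT, 0.204 to 0.280 in DKO, 0.316 to 0.497 in MlxKO and 0.435 to 1.01 in MycKO, and 0.211 to 0.301 in primary WT, 0.205 to 0.227 in MlxKO, 0.185 to 0.351 in MycKO and 0.297 to 0.336 in DKO.

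**Figure D2:**
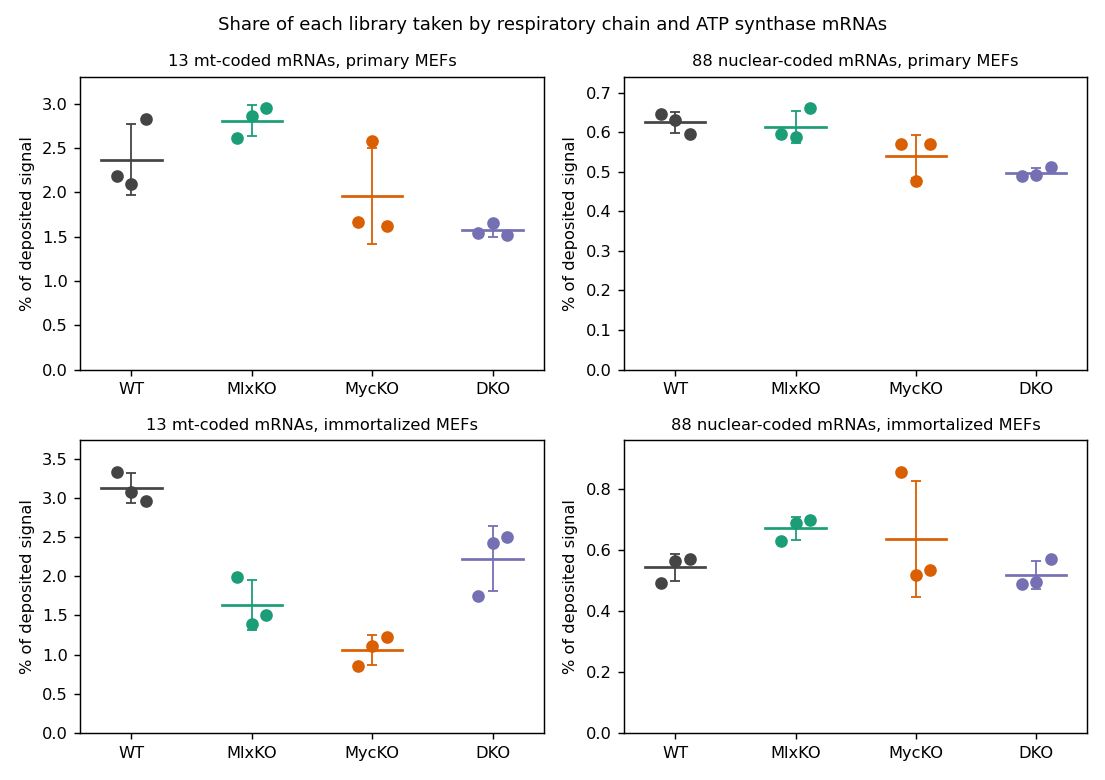
Share of each library's deposited signal (vertical axis, percent) in the 13 mt-coded mRNAs (left) and the 88 nuclear-coded mRNAs (right) in primary (top) and immortalized (bottom) MEFs, with a point per library, a bar at the mean and error bars of 1 SD (n = 3). In immortalized MEFs the mt-coded share falls from 2.96 to 3.33% in WT to 0.849 to 1.22% in MycKO, and in primary MEFs the DKO libraries sit at 1.52 to 1.65%.

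Per kilobase of transcript, the mt-coded mRNAs other than mt-Atp8 exceeded every nuclear-coded member in WT cells of both tables. On that scale mt-Co1, which codes the catalytic core subunit of complex IV, reached 4886 CPM per kb in primary WT and 6324 in immortalized WT. Within complex I the mt-coded levels spread widely in primary WT, from 1829 for mt-Nd1 to 492 for mt-Nd6, the only mt-coded member on the minus strand. Among nuclear-coded members the highest was Atp5b, the catalytic beta subunit of the ATP synthase, at 463 CPM per kb in primary and 385 in immortalized WT. It was followed in primary WT by Cox6a1 at 299, Cox4i1 at 232, both complex IV subunits of most tissues, and Atp5a1, the alpha subunit, at 210.5. The enzyme holds beta and alpha subunits in equal number.

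Members were tested with limma on log2(CPM + 1) among the genes that reached 1 CPM in 3 or more of a table's 12 libraries, and were called at an adjusted p under 0.05 over all genes tested. Of the 101 members, 94 entered among 13101 genes in primary cells and 92 among 12880 in immortalized cells. Cox4i2, Cox7b2, Cox7a1, Cox8b, Cox8c, Ndufb11b and Atp5o_1 entered neither, and Cox6a2 and Ndufa4l2 entered only the primary table. Each comparison within a table uses the same 3 WT libraries, so the comparisons are not independent of each other.

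In immortalized cells the mt-coded mRNAs fell in both single knockouts. All 13 of 13 were called lower in MycKO, with a median log2 fold change of -1.62, and 12 of 13 in MlxKO, with a median of -1.31, mt-Atp8 being the exception. Over all genes tested, 23.5% were called lower in MycKO and 19.9% in MlxKO, and the median of all genes was near 0 in each comparison. All 3 knockout libraries lay below all 3 WT libraries for 13 of 13 in MycKO and 12 of 13 in MlxKO, against 25.1% and 25.2% of all genes. In DKO cells all 13 differences were negative with a median of -0.50, 6 of 13 had all DKO libraries below WT (18.0% of all genes), and 2, mt-Atp6 and mt-Co2, were called lower (8.51% of all genes). Without DKO library 13 no member of either class was called in DKO, without WT library 2 or DKO library 14 2 were lower in all, and without MycKO library 9, which enters through the shared estimate of the spread, 9 were.

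By complex, the ATP synthase gene mt-Atp6, which codes the subunit a that forms the proton path, showed the largest fall in MycKO. Its level was 3884, 3141 and 4075 CPM in the WT libraries, 1819, 1202 and 1309.7 in MlxKO, 737, 985 and 1129 in MycKO and 1509, 2115 and 2122 in DKO. No knockout library reached the lowest WT library, the MycKO libraries were the lowest, and DKO overlapped with MlxKO. The log2 fold change was -1.97 ± 0.22 (SE, adjusted p = 2.26e-05) in MycKO, -1.37 ± 0.22 (SE, adjusted p = 8.37e-04) in MlxKO and -0.96 ± 0.22 (SE, adjusted p = 0.0107) in DKO. For mt-Cytb, the cytochrome b of complex III and its only mt-coded subunit, the libraries read 3171, 2932 and 2856 CPM in WT, 1622, 1184 and 1267 in MlxKO, 655, 977 and 1049 in MycKO and 1585, 2215 and 2204 in DKO. WT was again the highest and MycKO the lowest group, with MlxKO and DKO overlapping between them, and the fold changes were -1.77 ± 0.20 (SE, adjusted p = 3.36e-05), -1.15 ± 0.20 (SE, adjusted p = 0.00152) and -0.59 ± 0.20 (SE, adjusted p = 0.0606) in MycKO, MlxKO and DKO.

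Complex IV genes behaved alike in sign and differed in size. mt-Co2, whose product takes electrons from cytochrome c, was 4045, 3650.4 and 3831 CPM in WT and 887, 1072 and 1286 in MycKO, a change of -1.84 ± 0.21 (SE, adjusted p = 2.53e-05). It was 2070.4, 1444 and 1672 in MlxKO and 1769, 2470.2 and 2824 in DKO, both below WT, with changes of -1.17 ± 0.21 (SE, adjusted p = 0.00147) and -0.73 ± 0.21 (SE, adjusted p = 0.0280). mt-Co1 changed by -1.47 ± 0.24 (SE, adjusted p = 3.71e-04) in MycKO and -0.84 ± 0.24 (SE, adjusted p = 0.0147) in MlxKO, and mt-Co3, which codes the subunit beside the catalytic core, by -1.20 and -1.26. In DKO cells mt-Co1 was 6071, 8237 and 8106 CPM against 10985, 10109 and 8220.1 in WT, with 1 DKO library above the lowest WT library, and its difference of -0.39 ± 0.24 (SE, adjusted p = 0.257) was not called.

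All 7 mt-coded complex I genes, which code the proton-pumping membrane arm, were called lower in both single knockouts, by 1.25 to 1.96 in MycKO and 1.04 to 1.72 in MlxKO as log2 falls. Of these, mt-Nd6 showed the largest fall in MlxKO, from 512, 335 and 447 CPM in WT to 185, 108 and 106, a change of -1.72 ± 0.32 (SE, adjusted p = 0.00187). In MycKO it read 82.6, 167 and 187 and changed by -1.62 ± 0.32 (SE, adjusted p = 0.00139), and in DKO 253, 438 and 377, overlapping WT. The small subunit gene mt-Nd4l fell from 107, 102 and 164 to 24.1, 32.1 and 36.5 CPM in MycKO, a change of -1.96 ± 0.29 (SE, adjusted p = 2.31e-04). mt-Nd2 and mt-Nd3 changed by -1.39 and -1.46 in MlxKO and by -1.74 and -1.48 in MycKO, mt-Nd1 by -1.04 and -1.25, mt-Nd4 by -1.31 and -1.68, and mt-Nd5 by -1.37 and -1.52. Genes on both strands thus moved the same way. mt-Atp8 stood at 1.17, 0.444 and 1.64 CPM in WT and 0.409, 0.0549 and 0.0563 in MycKO, and its call in MycKO, -0.80 ± 0.29 (SE, adjusted p = 0.0357), rests on few reads per library.

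Both mitochondrial ribosomal RNAs, which are not members and are mostly removed by poly(A) selection, were lower in every immortalized knockout library than in any WT library. mt-Rnr2 was 488, 518 and 639 CPM in immortalized WT, 257, 160.2 and 159.7 in MlxKO, 118, 121 and 138 in MycKO and 214, 315 and 276 in DKO. mt-Rnr1 was 300.4, 365 and 108 in WT, 48.0 to 68.6 in MlxKO, 34.2 to 53.1 in MycKO and 48.6 to 73.4 in DKO. Without MycKO library 9, which stands apart, 13 of 13 mt-coded mRNAs were still called lower in MycKO and the median was -1.39. Without MlxKO library 5, 12 of 13 were called lower in MlxKO with a median of -1.47, and 17 nuclear-coded members were called higher there.

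**Figure D3:**
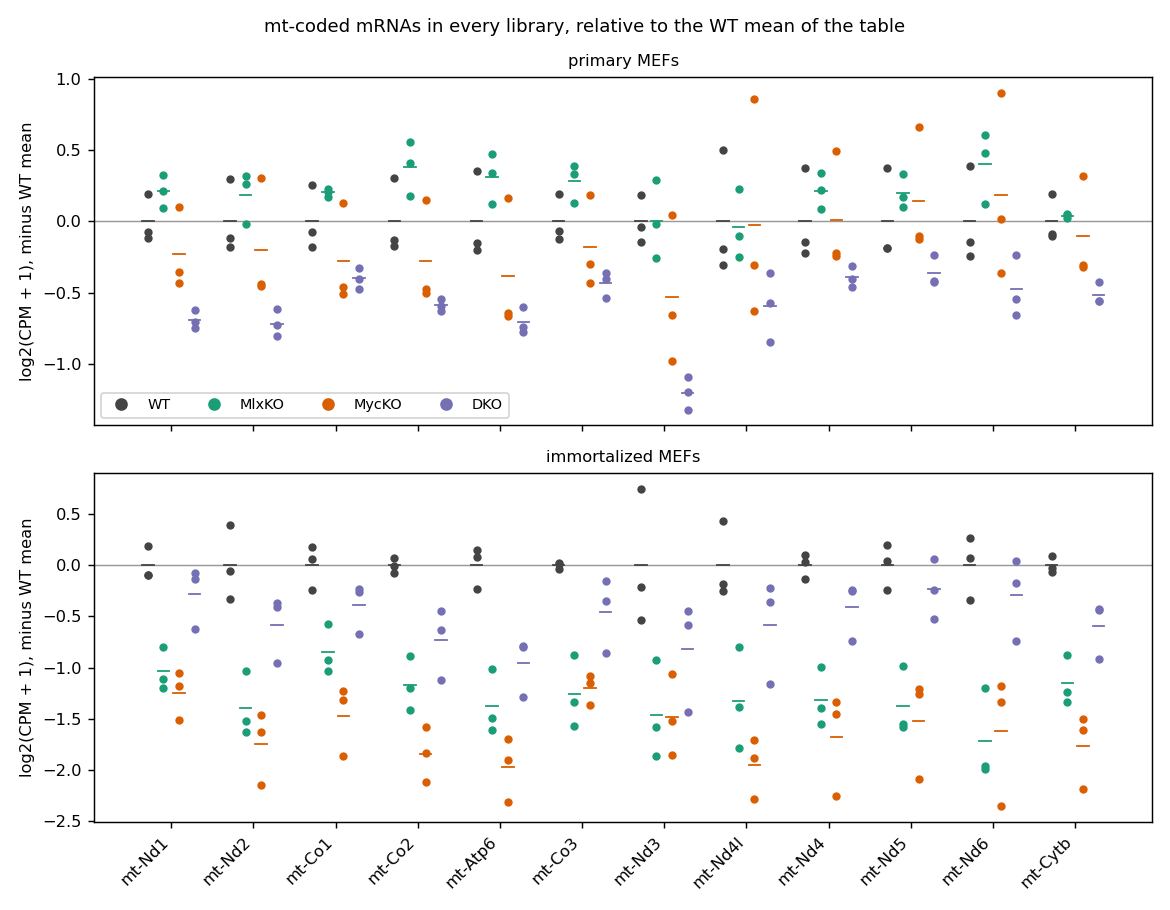
Level of 12 mt-coded mRNAs in every library as log2(CPM + 1) minus the WT mean of the same table (vertical axis), in primary (top) and immortalized (bottom) MEFs, with a point per library and a dash at each group mean, without mt-Atp8, which is near the floor in immortalized cells. Immortalized MlxKO and MycKO points lie below all WT points for each gene shown, and primary DKO points lie below the WT mean for each gene, their mean by 1.21 for mt-Nd3.

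In primary cells the mt-coded mRNAs fell in DKO cells. In all, 9 of 13 were called lower, with a median of -0.59, against 25.5% of all genes, and all DKO libraries lay below all WT libraries for 11 of 13, against 30.8% of all genes. In MycKO 1 of 13 was called lower, mt-Nd3, with a median of -0.20 and 21.9% of all genes called lower. None was called in MlxKO, where 12 of 13 differences were positive with a median of 0.21 (3.75% of all genes were called higher and 5.14% lower), although 3 of the 13 had an unadjusted p under 0.05, edgeR called 0 and DESeq2 0. These counts depend on the libraries that stand apart. Without WT library 3 and MycKO library 10, 11 of 13 were called lower in DKO, 8 lower in MycKO and 10 higher in MlxKO, with medians of -0.35, -0.27 and 0.38. Leaving libraries out also changes the shared estimate of the spread for every gene. The share of all genes called in this fit is not given, so its counts, here and below, are not read against all genes. The part of whatever sets these 2 libraries apart in the comparisons was not tested.

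mt-Nd3, a short membrane subunit gene of complex I, showed the largest fall in primary DKO. It read 191, 206 and 241 CPM in WT, 177, 209 and 258 in MlxKO, 107, 218 and 134 in MycKO and 84.1, 91.5 and 98.5 in DKO. Every DKO library was below every WT and MlxKO library, and MycKO library 10 alone among the MycKO libraries reached the WT range. The changes were -1.21 ± 0.19 (SE, adjusted p = 4.97e-05) in DKO and -0.53 ± 0.19 (SE, adjusted p = 0.0294) in MycKO. For mt-Atp6 the libraries read 1794, 1738 and 2544 CPM in WT, 2166, 2518 and 2765 in MlxKO, 1261, 2229.7 and 1274 in MycKO and 1192, 1315 and 1164 in DKO, and mt-Nd2 read 767, 736 and 1027 in WT and 503, 543 and 476 in DKO. In both genes the DKO libraries lay close together and below WT, with changes of -0.71 ± 0.18 (SE, adjusted p = 0.00356) and -0.72 ± 0.16 (SE, adjusted p = 0.00167). The others called lower in DKO were mt-Nd1 at -0.69, mt-Co2 at -0.59, mt-Atp8 at -0.59, mt-Cytb at -0.52, mt-Co3 at -0.43 and mt-Co1 at -0.40, whereas mt-Nd4, mt-Nd4l, mt-Nd5 and mt-Nd6 had differences of -0.39, -0.60, -0.36 and -0.48 that were not called. mt-Rnr2 was 280.4, 270.3 and 325 CPM in primary WT and 125, 117 and 110.4 in DKO.

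Nuclear-coded members fell in primary DKO by smaller amounts. Of 81 tested, 31 were called lower and 1 higher, with a median of -0.14, where 25.5% of all genes were called lower and 24.0% higher. All 3 DKO libraries lay below WT for 33 of 81 and above for 3, against 30.8% and 30.0% of all genes. By complex, 10 of 38 tested in complex I, 1 of 4 in complex II, 5 of 9 in complex III, 5 of 13 in complex IV and 10 of 17 in complex V were called lower, with medians of -0.10, -0.12, -0.27, -0.12 and -0.23. Complexes III and V thus held the larger shares of called members, and the difference between complexes was not tested. Without the 2 libraries that stand apart, 44 nuclear-coded members were called lower and 2 higher.

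In complex V, Atp5c1, the gamma subunit that turns inside the catalytic head, read 143, 143 and 146 CPM in WT, 137, 141 and 153 in MlxKO, 113, 105 and 115 in MycKO and 94.6, 97.7 and 94.7 in DKO. The libraries of each group lay close together, those of MycKO below WT and those of DKO below MycKO. Its change was -0.37 ± 0.06 (SE, adjusted p = 1.00e-04) in MycKO and -0.59 ± 0.06 (SE, adjusted p = 7.25e-07) in DKO, and its difference in MlxKO, -0.01, was not called. The catalytic subunits went the same way by less, Atp5b by -0.23 in MycKO and -0.39 in DKO and Atp5a1 by -0.31 and -0.37, all called. Of the 3 genes for the c-ring, Atp5g1 read 71.9, 81.0 and 74.3 CPM in WT and 52.6, 54.6 and 55.2 in DKO, a change of -0.47 ± 0.10 (SE, adjusted p = 5.94e-04). Atp5g2 and Atp5g3 code the same mature protein with other import sequences and changed by -0.29 ± 0.09 (SE, adjusted p = 0.0127) and -0.23 ± 0.09 (SE, adjusted p = 0.0349) in DKO. All 3 c-ring genes were thus called lower in DKO. In MycKO the differences of Atp5g1, Atp5g2 and Atp5g3 were -0.25, -0.25 and -0.12 with adjusted p of 0.0461, 0.0360 and 0.282.

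In complex IV, Cox5a, a nuclear-coded subunit on the matrix side, read 83.2, 74.2 and 74.8 CPM in WT, 63.4, 56.4 and 60.0 in MycKO and 55.3, 53.3 and 51.8 in DKO. All libraries without Myc lay below WT, and the changes were -0.36 ± 0.08 (SE, adjusted p = 0.00188) and -0.52 ± 0.08 (SE, adjusted p = 5.94e-05). In complex III, Uqcrc1, a core subunit facing the matrix, changed by -0.18 ± 0.06 (SE, adjusted p = 0.0252) in MycKO and -0.48 ± 0.06 (SE, adjusted p = 7.04e-06) in DKO. Sdhb, the iron-sulfur subunit of complex II, changed by -0.26 ± 0.07 (SE, adjusted p = 0.0107) and -0.25 ± 0.07 (SE, adjusted p = 0.0101), while the flavoprotein Sdha (0.02 and -0.10) and the membrane anchors Sdhc (0.11 and 0.02) and Sdhd (-0.08 and -0.14) were not called. Only Sdhb of the 4 complex II genes was therefore called in primary cells, in MycKO and in DKO. In complex I, Ndufs7, which holds the last iron-sulfur cluster before ubiquinone, read 38.4, 39.8 and 43.7 CPM in WT and 30.8, 29.8 and 32.6 in MycKO, a change of -0.37 ± 0.08 (SE, adjusted p = 0.00176), and changed by -0.28 ± 0.08 (SE, adjusted p = 0.0102) in DKO.

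Loss of a single factor changed fewer nuclear-coded members in primary cells. In MycKO 17 of 81 were called lower and 3 higher with a median of -0.03, where 21.9% and 20.4% of all genes were called lower and higher, and 16 and 3 had libraries entirely below or above WT (24.6% and 23.4% of all genes). The share called lower among the members was therefore close to that of all genes. The 3 called higher were Cox6a2, the heart and muscle form of a complex IV subunit, at 0.59 ± 0.17 (SE, adjusted p = 0.0119), and the small accessory subunits of complex I Ndufa3 and Ndufa1 at 0.50 and 0.49. Cox6a2 read 0.451, 0.815 and 0.935 CPM in WT and 2.11, 1.44 and 1.30 in MycKO, a low level. No WT library reached the 1 CPM of the filter, whereas all 3 MycKO libraries did and were enough for the gene to enter. The call of Cox6a2 was thus favoured by the filter and is not separate support for a rise. With no filter on low values, 1 nuclear-coded member was called higher in primary MycKO. Cox6a2 was above WT in every MycKO library, in cells in which the summed muscle markers were below WT. Of the 2 muscle markers tested in primary MycKO, 1 was called higher and 1 lower. Without MycKO library 10, 16 nuclear-coded members were called higher and 12 lower, with a median of 0.08. Leaving out this 1 library thus turned the sign of the median and raised the count of rises, whereas without MycKO library 9 or 11 the members called higher were 0 and 1.

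In MlxKO 3 of 81 nuclear-coded members were called lower and 0 higher, with a median of -0.06, an unadjusted p under 0.05 for 10 lower and 3 higher, and 5 lower by edgeR and 8 by DESeq2. Libraries lay entirely below WT for 7 of 81 and above for 5, against 14.4% and 14% of all genes. Uqcrh, the acidic hinge subunit between cytochrome c and complex III, read 58.5, 54.7 and 47.5 CPM in WT and 40.6, 40.8 and 43.3 in MlxKO, a change of -0.35 ± 0.09 (SE, adjusted p = 0.0153). Cox7a2, the widely expressed form of subunit VIIa of complex IV, read 55.9, 48.4 and 52.1 and 40.8, 41.4 and 44.4, a change of -0.30 ± 0.07 (SE, adjusted p = 0.0171). Both stood below WT in each MlxKO library. The third, Atp5k, subunit e of the ATP synthase, read 15.6, 15.9 and 7.30 in WT and 8.69, 4.07 and 5.03 in MlxKO, a change of -0.99 ± 0.27 (SE, adjusted p = 0.0301), and its groups overlapped. Without WT library 3 and MycKO library 10, 23 nuclear-coded members were called lower in MlxKO and 1 higher. With 1 library left out, 0 members were lower without WT library 1 or MlxKO library 6, 1 without WT library 2, 8 without WT library 3 and 9 without MycKO library 10.

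In immortalized cells more nuclear-coded members rose than fell in each single knockout, opposite in sign to the mt-coded mRNAs of the same libraries. In MycKO 25 of 79 tested were called higher and 3 lower with a median of 0.28, against 24.4% and 23.5% of all genes, and in MlxKO 18 were higher and 3 lower with a median of 0.20, against 19.1% and 19.9%. Libraries lay entirely above WT for 25 in MycKO and 25 in MlxKO, where 26.0% and 23.9% of all genes did. The share of members that rose was near that of all genes in both, and the share that fell was under it. In DKO 1 of 79 was called higher and 3 lower with a median of 0.04 (10.4% of all genes were called higher), and 11 had all libraries above WT, against 19.2% of all genes.

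The rise in MycKO leaned on MycKO library 9. Without it 16 nuclear-coded members were called higher and 10 lower, and the median was 0.07, and 14 members were called higher without WT library 2 and 13 when only the WT and MycKO libraries entered the fit. In MlxKO the count higher fell to 4 without WT library 2, 4 without MlxKO library 6 and 5 without MlxKO library 7. Transcript length differed between called and other members, in both directions. Nuclear-coded members called higher in MycKO had a median length of 900 bases and those not called 1179, whereas in MlxKO these medians were 1256 and 1046. With a length correction, an alternative added once the data had been seen, the medians of the log2 fold changes of nuclear-coded members were 0.10 in MycKO and 0.02 in MlxKO with 23 and 16 called higher. In primary cells the members called lower were the longer ones in DKO (1522 bases against 879 for those not called) and in MycKO (1780 against 988), and the shorter ones in MlxKO (814 against 1090), as were those called higher in MycKO (515). The part of length in these results was not tested further.

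By complex, 15 of 37 nuclear-coded members of complex I were called higher in MycKO with a median of 0.54, against 1 of 4 in complex II, 3 of 9 in complex III, 4 of 12 in complex IV and 2 of 17 in complex V, where 24.4% of all genes were called higher. Without MycKO library 9 the counts were 10, 0, 2, 2 and 2 higher and 5, 0, 1, 2 and 2 lower, and the complex I median was 0.18. In MlxKO the counts higher were 8, 2, 3, 3 and 2 of the same totals, where 19.1% of all genes were. Uqcr11 had the largest rise in both. It read 3.40, 6.99 and 4.75 CPM in WT, 9.63, 24.6 and 22.5 in MlxKO, 31.1, 13.3 and 11.5 in MycKO and 10.7, 7.41 and 10.1 in DKO. Every knockout library exceeded every WT library, with a wide spread inside the single knockouts, and the changes were 1.61 ± 0.39 (SE, adjusted p = 0.00505) in MycKO, 1.66 ± 0.39 (SE, adjusted p = 0.00612) in MlxKO and 0.81 ± 0.39 (SE, adjusted p = 0.159) in DKO. Without MycKO library 9 the change in MycKO was 1.19 (adjusted p = 0.0213).

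Cox5b, a zinc-binding nuclear-coded subunit of complex IV, read 13.6, 21.6 and 10.4 CPM in immortalized WT, 28.8, 44.6 and 40.4 in MlxKO and 86.9, 29.0 and 29.8 in MycKO. Both knockouts lay above WT, by 1.30 ± 0.38 (SE, adjusted p = 0.0172) and 1.48 ± 0.38 (SE, adjusted p = 0.00678), and the gene has a pseudogene copy in the table, so reads may have been split. Ndufs6, an accessory subunit of the matrix arm of complex I, read 3.92, 7.21 and 5.36 in WT, 8.32, 17.9 and 19 in MlxKO and 29.3, 12.2 and 10.1 in MycKO. It changed by 1.26 ± 0.38 (SE, adjusted p = 0.0200) and 1.37 ± 0.38 (SE, adjusted p = 0.0102). Without MycKO library 9 the changes in MycKO were 0.97 (adjusted p = 0.0170) for Cox5b and 0.93 (adjusted p = 0.0404) for Ndufs6. In complex II Sdha rose in MlxKO by 0.33 ± 0.10 (SE, adjusted p = 0.0193) and Sdhd by 0.58 ± 0.17 (SE, adjusted p = 0.0187), while Sdhb and Sdhc differed by -0.22 and -0.22 and were not called. In MycKO Sdhd was the complex II gene called higher, at 0.45 ± 0.17 (SE, adjusted p = 0.0459), and without MycKO library 9 its difference was 0.29 (adjusted p = 0.175).

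Few nuclear-coded members fell in immortalized cells. Ndufs1, the large iron-sulfur subunit of complex I, fell in MycKO and MlxKO with log2 fold changes of -0.47 ± 0.10 (SE, adjusted p = 0.00327) and -0.49 ± 0.10 (SE, adjusted p = 0.00394). Cox7c, a small subunit of complex IV, changed by -0.61 ± 0.17 (SE, adjusted p = 0.0111) in MycKO, -0.47 ± 0.17 (SE, adjusted p = 0.0442) in MlxKO and -0.56 ± 0.17 (SE, adjusted p = 0.0375) in DKO, and read 71.1, 70.8 and 84.3 CPM in WT, 64.3, 47.2 and 52.0 in MlxKO, 65.0, 42.1 and 43.1 in MycKO and 46.6, 51.9 and 53.8 in DKO. Its difference was therefore called in all 3 knockouts. Atp5a1 fell in MycKO and DKO with log2 fold changes of -0.43 ± 0.10 (SE, adjusted p = 0.00408) and -0.41 ± 0.10 (SE, adjusted p = 0.0160), and Ndufc1, a small membrane subunit of complex I, in MlxKO with log2 fold changes of -0.43 ± 0.15 (SE, adjusted p = 0.0429). In DKO the largest fall was that of Cox7a2l, a factor that joins complexes III and IV into supercomplexes, at -0.72 ± 0.22 (SE, adjusted p = 0.0370), with 99.4, 84.1 and 80.9 CPM in WT and 49.2, 50.6 and 59.4 in DKO. The single DKO rise was Ndufb10, an accessory subunit of the membrane arm of complex I, at 0.79 ± 0.25 (SE, adjusted p = 0.0436), with 17.7, 28.7 and 15.3 in WT and 34.9, 33.8 and 36.8 in DKO.

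**Figure D4:**
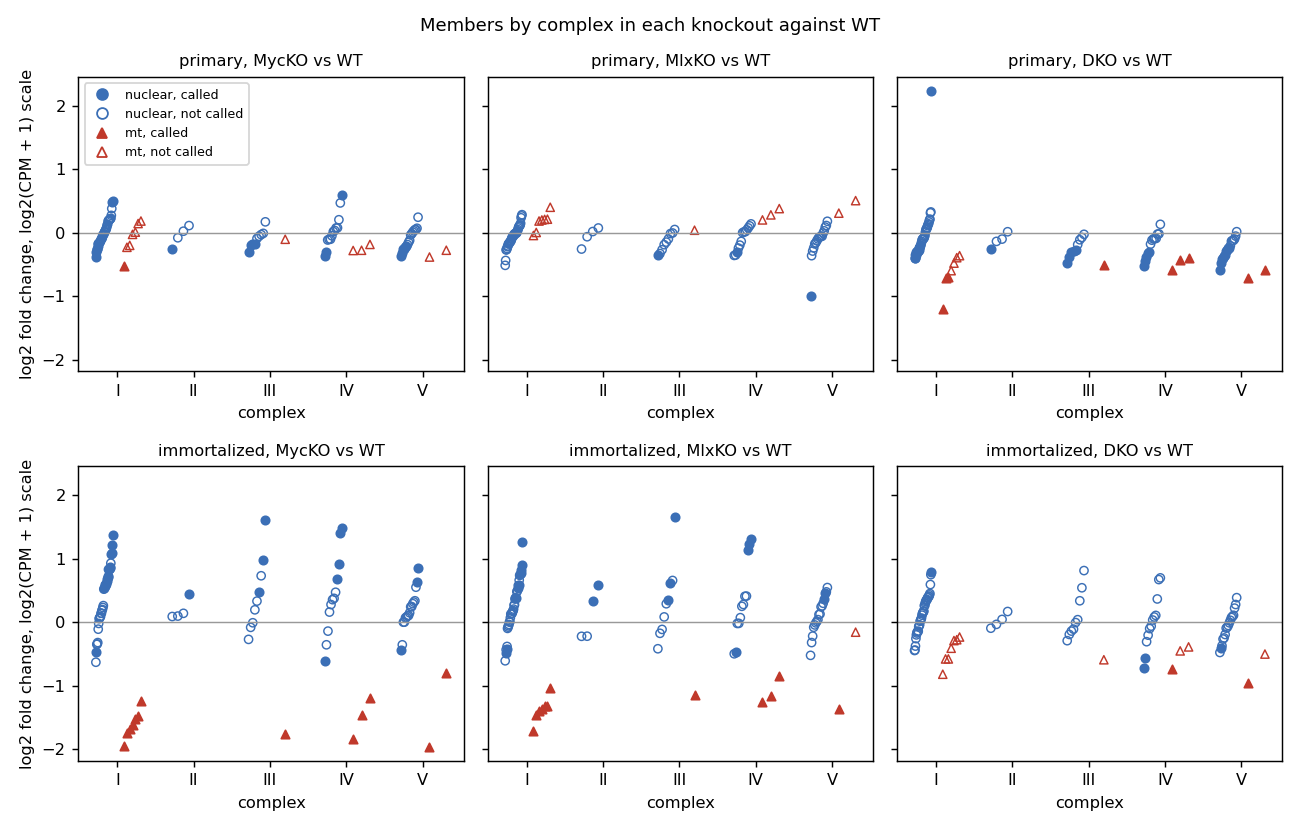
Log2 fold change of every tested member on the log2(CPM + 1) scale (vertical axis) against its complex (horizontal axis) for each knockout against WT, with primary MEFs in the top row and immortalized MEFs in the bottom row. Circles are nuclear-coded and triangles mt-coded members, filled where called at an adjusted limma p under 0.05, and in immortalized MycKO the triangles lie between -1.97 and -0.80 while the median of the circles is 0.28.

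Among paralogues and tissue forms, Ndufa4l2 stood out in primary DKO. This relative of Ndufa4 is known for its induction in hypoxia. It read 2.43, 3.64 and 2.69 CPM in WT, 2.24, 1.55 and 1.44 in MlxKO, 5.60, 3.14 and 3.74 in MycKO and 16.6, 16.1 and 19.6 in DKO. Every DKO library exceeded every library of the other groups, and the change against WT was 2.24 ± 0.18 (SE, adjusted p = 4.42e-08), against 0.38 ± 0.18 (SE, adjusted p = 0.0974) in MycKO and -0.51 ± 0.18 (SE, adjusted p = 0.0846) in MlxKO. In immortalized cells it was at most 0.113 CPM. Ndufa4 itself read 72.7, 71.3 and 66.0 CPM in primary WT and 57.8, 55.9 and 57.1 in DKO, a difference of -0.29 ± 0.09 (SE, adjusted p = 0.0114), so that the pair differed in sign in the same libraries.

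Isoforms typical of heart, muscle, lung or testis were low. Cox4i2, the lung form of subunit IV, reached at most 0.460 CPM in primary and 0.110 in immortalized libraries, and Cox7a1, the heart and muscle form of subunit VIIa, at most 0.548 and 0.225. Cox8b and Cox8c, the muscle and testis forms of subunit VIII, had no read in any of the 24 libraries, where the floor of 3 reads would be at most 0.196 CPM. Per kilobase in primary WT, Cox4i1 stood at 232 CPM and Cox8a at 159. The widely expressed forms thus carried nearly all of the signal. Cox6b2, the testis form of subunit VIb, was an exception in immortalized cells, at 1.82, 2.61 and 0.243 CPM in WT, 3.82, 4.40 and 5.36 in MlxKO, 6.13, 4.23 and 5.23 in MycKO and 3.24, 3.17 and 1.88 in DKO, with changes of 1.40 ± 0.33 (SE, adjusted p = 0.00412) in MycKO and 1.24 ± 0.33 (SE, adjusted p = 0.0114) in MlxKO. Both single knockouts lay above WT in every library, and the change in MycKO was 1.29 (adjusted p = 0.0184) without MycKO library 9. Its partner Cox6b1 differed by 0.68 and 0.41 (adjusted p = 0.0200 and 0.147), Cox8a by 0.92 ± 0.31 (SE, adjusted p = 0.0277) and 1.13 ± 0.31 (SE, adjusted p = 0.0135), Cox4i1 by 0.47 and 0.41 (adjusted p = 0.0903 and 0.148), and Cox6a1 by 0.16 and 0.25 (adjusted p = 0.610 and 0.424). Without MycKO library 9 the differences of Cox6b1 and Cox8a in MycKO, at 0.38 (adjusted p = 0.0559) and 0.58 (adjusted p = 0.121), no longer passed the threshold.

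**Figure D5:**
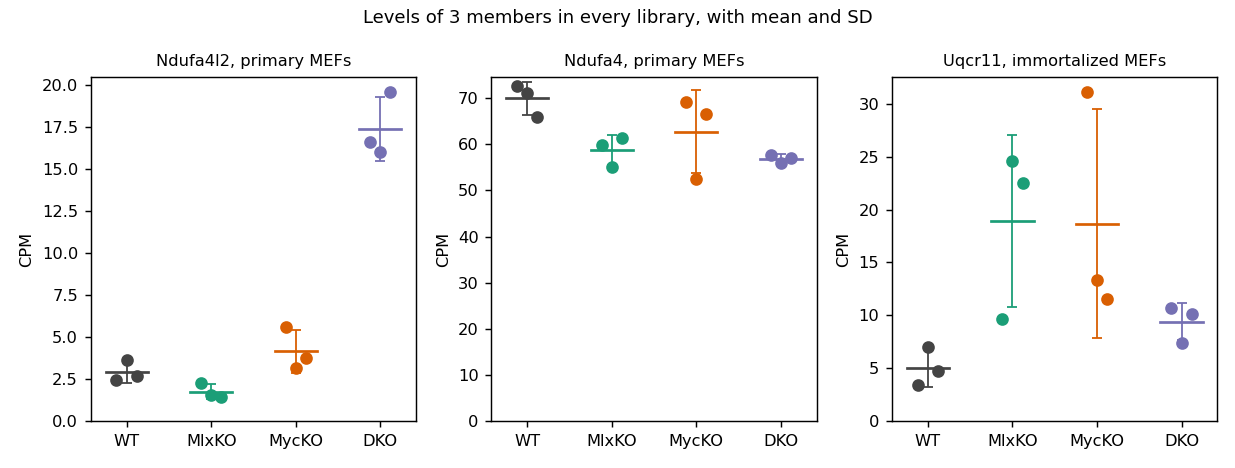
CPM (vertical axis) of Ndufa4l2 and Ndufa4 in primary MEFs and of Uqcr11 in immortalized MEFs for each genotype, with a point per library, a bar at the mean and error bars of 1 SD (n = 3). Ndufa4l2 is at 16.1 to 19.6 CPM in DKO and at most 5.60 elsewhere, and the Uqcr11 points of MlxKO and MycKO spread from 9.63 to 24.6 and 11.5 to 31.1 CPM.

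The interaction asked whether the change in DKO equalled the sum of the changes in the single knockouts on the log2 scale, in which case it is 0. In immortalized cells 38 of 92 members were called, 13 positive and 25 negative, where 47.4% of all genes were called, 23.7% positive and 23.8% negative. The mt-coded mRNAs made up 12 of the positive ones, with a median of 2.32 over all 13, and the nuclear-coded Ndufs1 the other, at 0.75. All called negative ones were nuclear-coded, with a median of -0.47 over the 79. mt-Nd6 had 3.05 ± 0.45 (SE, adjusted p = 2.41e-04) and mt-Nd4l 2.70 ± 0.42 (SE, adjusted p = 3.26e-04), and Uqcr11 and Ndufs6 had -2.46 ± 0.55 (SE, adjusted p = 0.00326) and -2.20 ± 0.53 (SE, adjusted p = 0.00515). With single libraries left out, 16 to 29 nuclear-coded members were called negative and 1 to 6 positive. The nuclear-coded median then ranged from -0.67 to -0.21. In the same fits 12 mt-coded mRNAs were called positive, with medians from 2.21 to 2.48. By these medians the DKO libraries were closer to WT in both classes than the sum of the single knockouts would place them. For the nuclear-coded members the size of this departure depended on which libraries entered the fit. In the single comparisons, 48.0%, 38.9% and 18.9% of all genes were called in either direction in MycKO, MlxKO and DKO.

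In primary cells 5 of 94 members had a called interaction, 1 positive and 4 negative, against 13.5% of all genes, 7.47% positive and 6.07% negative. All 13 mt-coded mRNAs had a negative value there, with a median of -0.67, the opposite sign to immortalized cells, and mt-Nd6, mt-Co2 and mt-Nd1 were called at -1.06 ± 0.33 (SE, adjusted p = 0.0431), -0.69 ± 0.22 (SE, adjusted p = 0.0413) and -0.67 ± 0.16 (SE, adjusted p = 0.0103). The difference between the tables was not tested because they were scaled separately. Ndufa4l2 was the positive one, at 2.37 ± 0.25 (SE, adjusted p = 7.24e-06), and Uqcrc1 the nuclear-coded negative one, at -0.30 ± 0.09 (SE, adjusted p = 0.0291). These primary counts varied with 2 libraries, since 28 members were called without WT library 3 and MycKO library 10, 15 without the first alone and 19 without the second alone. The count was 2 without WT library 1, WT library 2, MlxKO library 7 or DKO library 13, and 8 without MycKO library 11. In the single comparisons 42.3%, 8.88% and 49.5% of all genes were called in either direction in MycKO, MlxKO and DKO.

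RefSeq start-site windows of 300 bases (250 before and 50 after the start, GRCm38.p6) were matched for 68 of the 88 nuclear-coded members. The E-box CACGTG occurred in 6 of 68 (8.82%), against 7.24% of all 27025 windows. The 6 were Atp5g1, Atp5g3, Atp5pb and Atp5l of complex V, which held 4 of 14, and Ndufa7 and Ndufv1 of complex I. In the stretches shown it begins 44 bases before the start in Atp5g1, 238 before in Atp5g3 and 249 before in Atp5pb. Among members called lower in primary DKO it was present in 3 of 23 (13%) and among those not called in 3 of 42 (7.14%). In immortalized MycKO it was present in 0 of 20 called higher and in 6 of 44 (13.6%) not called. In primary DKO the fall of Atp5c1, whose stretch has no E-box, was larger than those of Atp5g1 and Atp5g3. Atp5c1 had been named for the size of its fall in primary cells, so this order follows in part from that choice. The part of the E-box in these changes was not tested. The NRF1 core GCGCATGC occurred in 10 of 68 (14.7%) of the member windows and 2.80% of all, and the GABP core CCGGAAG in 16 of 68 (23.5%) and 9.12%. For GABP the share was 2 of 23 (8.70%) among members lower in primary DKO and 14 of 42 (33.3%) among those not called. Uqcr11 held both, the NRF1 core beginning 4 bases and the GABP core 66 bases before the start, so that the NRF1 core runs across the start. A match describes letters in this window and is not evidence of binding.

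Genes that maintain or transcribe mitochondrial DNA or process its RNA fell in primary cells without Myc. Of 27 tested, the test called 15 lower and 0 higher in MycKO, 0 lower and 0 higher in MlxKO and 17 lower and 0 higher in DKO, where 21.9%, 5.14% and 25.5% of all genes were lower, with medians of -0.32, 0.01 and -0.40. Pnpt1, an exoribonuclease of mitochondria, read 44.3, 41.2 and 45.3 CPM in WT, 21.4, 22.5 and 21.9 in MycKO and 23.1, 22.2 and 21.1 in DKO, changes of -0.96 ± 0.07 (SE, adjusted p = 4.40e-08) and -0.95 ± 0.07 (SE, adjusted p = 3.12e-08). Fastkd5, which helps to process mitochondrial transcripts that lack flanking tRNAs, changed by -0.51 ± 0.12 (SE, adjusted p = 0.00239) and -0.93 ± 0.12 (SE, adjusted p = 7.70e-06). In immortalized cells it called 8 lower and 0 higher in MycKO, 6 lower and 1 higher in MlxKO and 4 lower and 0 higher in DKO, where 23.5%, 19.9% and 8.51% of all genes were lower, with medians of -0.26, -0.19 and -0.34. The shares of all genes called higher were 20.4%, 3.75% and 24.0% in primary and 24.4%, 19.1% and 10.4% in immortalized cells. Tfb2m, a mitochondrial transcription initiation factor, fell in all 3, with log2 fold changes of -0.98 ± 0.17 (SE, adjusted p = 6.90e-04) in MycKO, -1.06 ± 0.17 (SE, adjusted p = 9.42e-04) in MlxKO and -0.66 ± 0.17 (SE, adjusted p = 0.0211) in DKO, and Fastkd2, an RNA-binding protein of the mitochondrial matrix, fell in MlxKO with log2 fold changes of -0.96 ± 0.20 (SE, adjusted p = 0.00328).

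Assembly factors, which build the complexes without staying in them, were called in both directions. Of 49 tested, the test called 8 lower and 0 higher in MycKO, 1 lower and 0 higher in MlxKO and 12 lower and 3 higher in DKO among primary cells, and 4 lower and 11 higher in MycKO, 5 lower and 8 higher in MlxKO and 0 lower and 0 higher in DKO among immortalized cells. The shares of all genes called lower and higher were 21.9% and 20.4% in primary MycKO, 5.14% and 3.75% in MlxKO and 25.5% and 24.0% in DKO, and 23.5% and 24.4% in immortalized MycKO, 19.9% and 19.1% in MlxKO and 8.51% and 10.4% in DKO, each above the share of the list. Ndufaf4, an assembly factor of complex I, fell in both Myc-deleted primary groups, with log2 fold changes of -0.62 ± 0.12 (SE, adjusted p = 5.94e-04) and -0.72 ± 0.12 (SE, adjusted p = 1.22e-04), and in immortalized MycKO and MlxKO with log2 fold changes of -0.80 ± 0.22 (SE, adjusted p = 0.0102) and -0.65 ± 0.22 (SE, adjusted p = 0.0333). Fmc1, a factor for the ATP synthase, fell in primary DKO with a log2 fold change of -0.64 ± 0.22 (SE, adjusted p = 0.0220). Uqcc2, needed for cytochrome b of complex III, rose in immortalized MycKO from 14.1, 17.3 and 15.2 to 69.1, 31.0 and 30.0 CPM, a change of 1.32 ± 0.27 (SE, adjusted p = 0.00186), and in MlxKO by 0.93 ± 0.27 (SE, adjusted p = 0.0182), whereas mt-Cytb itself fell in the same libraries. Coa3, a factor for mt-Co1, rose in immortalized MycKO by 1.21 ± 0.27 (SE, adjusted p = 0.00304), where mt-Co1 fell. Without MycKO library 9 the changes were 0.94 (adjusted p = 0.00227) for Uqcc2 and 0.81 (adjusted p = 0.00212) for Coa3.

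Regulators of mitochondrial biogenesis (11 of 13 tested in primary and 13 in immortalized cells) gave 1 lower and 0 higher in MycKO, 0 lower and 1 higher in MlxKO and 3 lower and 1 higher in DKO in primary and 6 lower and 2 higher in MycKO, 6 lower and 1 higher in MlxKO and 2 lower and 0 higher in DKO in immortalized cells. Of all genes, 21.9%, 5.14% and 25.5% were lower in the primary comparisons and 23.5%, 19.9% and 8.51% in the immortalized ones. The shares of all genes called higher were 20.4%, 3.75% and 24.0% in primary and 24.4%, 19.1% and 10.4% in immortalized cells. Hif1a, the hypoxia-inducible factor subunit, rose in primary MlxKO and DKO by 0.50 ± 0.09 (SE, adjusted p = 0.00188) and 0.64 ± 0.09 (SE, adjusted p = 1.63e-05), while Ndufa4l2 passed the test in DKO and not in MlxKO, and Hif1a fell in immortalized MycKO and MlxKO with log2 fold changes of -0.98 ± 0.14 (SE, adjusted p = 1.42e-04) and -1.01 ± 0.14 (SE, adjusted p = 3.93e-04). Sirt1, a protein deacetylase, fell in primary MycKO and DKO by 0.44 and 0.51 and in immortalized MycKO, MlxKO and DKO by 0.80, 0.82 and 0.43 on the log2 scale. Prkaa2, a catalytic subunit of AMP-activated kinase, fell in immortalized MycKO and MlxKO with log2 fold changes of -1.05 ± 0.21 (SE, adjusted p = 0.00154) and -1.50 ± 0.21 (SE, adjusted p = 4.13e-04). Ppargc1a, the coactivator best known for inducing mitochondrial genes, was 1.76, 2.05 and 0.974 CPM in immortalized WT and 0.153, 0.220 and 0.0563 in MycKO, a change of -1.16 ± 0.22 (SE, adjusted p = 0.00117) at a low level.

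Mobile carriers and coenzyme Q synthesis genes (15 tested) gave 3 lower and 2 higher in MycKO, 0 lower and 1 higher in MlxKO and 5 lower and 1 higher in DKO in primary and 2 lower and 1 higher in MycKO, 2 lower and 2 higher in MlxKO and 0 lower and 0 higher in DKO in immortalized cells. Among all genes the shares lower in MycKO, MlxKO and DKO were 21.9%, 5.14% and 25.5% in primary and 23.5%, 19.9% and 8.51% in immortalized cells, and the shares higher 20.4%, 3.75% and 24.0% and 24.4%, 19.1% and 10.4%. Cycs, cytochrome c itself, read 65.2, 59.6 and 61.4 CPM in primary WT, 50.4, 38.8 and 45.7 in MycKO and 37.0, 36.7 and 37.1 in DKO, and fell with log2 fold changes of -0.46 ± 0.09 (SE, adjusted p = 5.21e-04) and -0.73 ± 0.09 (SE, adjusted p = 4.69e-06). Pdss1, which makes the side chain of coenzyme Q, fell with log2 fold changes of -0.89 ± 0.12 (SE, adjusted p = 1.28e-05) and -1.19 ± 0.12 (SE, adjusted p = 4.01e-07). These falls exceeded those of any nuclear-coded subunit in the same comparison in size. In immortalized MycKO and MlxKO, Hccs, which attaches haem to cytochrome c, fell with log2 fold changes of -1.15 ± 0.16 (SE, adjusted p = 1.07e-04) and -0.90 ± 0.16 (SE, adjusted p = 0.00134), and Coq8a, a kinase-like protein of coenzyme Q synthesis, changed with log2 fold changes of -0.97 ± 0.29 (SE, adjusted p = 0.0149) in MycKO.

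Other routes of electron entry and adenine nucleotide exchange (9 tested) gave 5 lower and 0 higher in MycKO, 2 lower and 0 higher in MlxKO and 5 lower and 0 higher in DKO in primary and 5 lower and 2 higher in MycKO, 3 lower and 1 higher in MlxKO and 1 lower and 1 higher in DKO in immortalized cells, beside 21.9%, 5.14% and 25.5% of all genes lower in the primary and 23.5%, 19.9% and 8.51% in the immortalized comparisons. The shares of all genes called higher were 20.4%, 3.75% and 24.0% in primary and 24.4%, 19.1% and 10.4% in immortalized cells. Slc25a5, the ADP/ATP carrier of dividing cells, read 263, 254 and 241 CPM in primary WT, 168, 145 and 181 in MycKO and 129, 126 and 137 in DKO, changes of -0.62 ± 0.08 (SE, adjusted p = 7.15e-06) and -0.94 ± 0.08 (SE, adjusted p = 5.27e-08). Slc25a4, the form of heart and muscle, rose in immortalized cells by 1.07 ± 0.19 (SE, adjusted p = 6.65e-04) in MycKO, 0.83 ± 0.19 (SE, adjusted p = 0.00505) in MlxKO and 0.59 ± 0.19 (SE, adjusted p = 0.0450) in DKO. Ucp2, an uncoupling protein homologue also found in macrophages, fell in primary MycKO, MlxKO and DKO with log2 fold changes of -0.98 ± 0.13 (SE, adjusted p = 1.67e-05), -0.49 ± 0.13 (SE, adjusted p = 0.0278) and -1.23 ± 0.13 (SE, adjusted p = 1.20e-06), in cultures whose macrophage markers moved as given, and in immortalized MycKO with log2 fold changes of -1.09 ± 0.27 (SE, adjusted p = 0.00625).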

How the data were processed

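The authors prepared poly(A)-selected directional libraries (NEBNext), read counts on GRCm39 were made in CLC Genomics Workbench, and the deposited signal values are named CPM. Their columns summed to between 915691 and 1077213, so a scaling beyond the total is included, which the sources used here do not name, and each table was scaled on its own. The deposited signal steps gave whole reads for 100% of values (tolerance 0.01 reads), and edgeR 4.0.16 and DESeq2 1.42.0 were run on those reads as alternatives, calling 6503 and 6488 genes in primary DKO against 6487 by limma. limma 3.58.1 in R 4.3.3, a moderated linear model over the 12 libraries of a table, was fitted to log2(CPM + 1), with at least 1 CPM in at least 3 libraries, Benjamini-Hochberg adjustment over all genes tested and a threshold of 0.05. A fold change on this scale understates that of low genes. Transcript lengths and positions came from GENCODE on GRCm39 (41181 of 41710 identifiers, all 101 members) and promoters from RefSeq. Figures were drawn with matplotlib 3.10.9.

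Named genes were all mt-coded members, complex II, tissue forms and c-ring genes, the 3 largest rises and falls per comparison among called members whose libraries did not overlap WT, the 2 largest interactions in each direction, and the 2 largest changes of each further list. Members named because a count was 5 or fewer, to follow a gene into other comparisons or as context (Atp5k, Ndufa1, Ndufa3, Ndufs1, Cox7c, Ndufc1, Atp5a1, Atp5b, Atp5pb, Atp5l, Ndufa7, Ndufv1, Uqcrc1 and the rRNAs) were chosen after their values were seen. The name rule for members, the rules for named genes and the lists were set with earlier results of these data known. Those results were of whole-series gene sets and not of these members, and no value entered the name rule. Alternatives were other pseudocounts, filters, scalings, tools, fits of the compared groups only and leaving out each library, and, chosen after the data were seen, leaving out 2 primary libraries and correcting for transcript length. Depth was 15986856 to 20966163 reads per library, and counting error at that depth is small for all members but those near the floor.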

Additional observations from a re-analysis of the deposited data

Results flagged for a closer look

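The interaction of Myc and Mlx loss, which tests whether the change in DKO differs from the sum of the changes in the single knockouts, differed from 0 for 5 of 94 members in primary and 38 of 92 in immortalized cells (limma, adjusted over all genes). Of all genes, 13.5% and 47.4% had a called interaction, so neither count of members was above the share of all genes. In primary cells these were led by Ndufa4l2 at 2.37, mt-Nd6 at -1.06 and mt-Co2 at -0.69 on the log2 scale, and in immortalized cells by mt-Nd6 at 3.05, mt-Nd4l at 2.70, Uqcr11 at -2.46 and Ndufs6 at -2.20. A difference between groups, shown by the interaction term itself, set each of them apart. The primary count ranged from 2 to 19 when single libraries were left out and the immortalized count from 29 to 42. Groups of 3 libraries are too small for a test of single outlying libraries.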

How the results depend on the processing

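Calls of mt-coded mRNAs in immortalized MycKO (12 to 13 lower) and MlxKO (11 to 12) and of the interaction (12 positive) held over all alternatives run. Of the results for named genes, 11467 stayed on their side of the threshold, 332 lost and 295 gained a call, and 1 turned sign with a call in the main or the alternative fit. Sign changes with no call in either fit were counted among the 11467. The 1 was Uqcr11 in primary MycKO (-0.09 ± 0.27 (SE, adjusted p = 0.814) with all libraries), at 0.38 without MycKO library 10 and -0.34 without MycKO library 11. Leaving out single libraries gave 0 to 16 members higher and 12 to 21 lower in primary MycKO, 0 to 4 and 0 to 9 in MlxKO, 1 to 3 and 32 to 50 in DKO, and 2 to 19 with a called interaction. In immortalized cells it gave 14 to 30 higher and 15 to 23 lower in MycKO, 4 to 24 and 12 to 18 in MlxKO, 0 to 5 and 0 to 9 in DKO, and 29 to 42 interactions. With 1 library left out, the fewest members called higher in immortalized MycKO were those without WT library 2, and no fall was called in immortalized DKO without DKO library 13.

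In primary MycKO (3 higher, 18 lower), 1 was higher with no filter, with library-total or nuclear-total scaling or with the compared groups only, 9 with the length correction and 10 without WT library 3 and MycKO library 10, and 31 were lower with either total scaling, which moved the median of all genes by -0.09. In primary MlxKO (0 and 3), 1 was higher with either total scaling or the length correction and 11 without the 2 libraries, and 5 were lower with median-ratio scaling or edgeR, 8 with DESeq2, 6 with the length correction and 23 without the 2 libraries. In primary DKO (1 higher) there were 3 with the compared groups only, 2 with edgeR or without the 2 libraries, and 7 with the length correction, and the primary interaction (5) had 2 with no filter, 8 with nuclear-total scaling or the length correction and 28 without the 2 libraries. In immortalized MycKO (25 higher) 13 were called with the compared groups only. In immortalized DKO (1 higher, 5 lower) 0 were higher with no filter, either total scaling, the compared groups only or edgeR and 3 with the length correction, and 2 were lower with no filter and 3 with the compared groups only. The cause of these shifts was not tested.

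No paired analysis was possible because nothing in the labels links the numbered columns to their replicate numbers. With 3 libraries against 3, an exact permutation test of a single value could not go below 0.10, so calls rest on the spread pooled over all genes and the 4 groups. Depth limits mt-Atp8 in immortalized cells and the tissue forms near the floor.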
